A study of Mus musculus with 24 samples.

Results

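miR-196a-5p, miR-196b-5p, miR-10a-5p and miR-10b-5p are the 4 mature 5′ arm miRNAs of the miR-196 and miR-10 families, whose genes lie inside the Hox clusters of the mouse genome. Their rows, mmu-miR-196a-5p, mmu-miR-196b-5p, mmu-miR-10a-5p and mmu-miR-10b-5p, were taken by name from the 3 deposited tables, one for each day. The set was chosen by the counts of miR-196b-5p, which stood higher in irradiated than in control lungs at day 180. All 4 were present in each table, among 1657, 1707 and 1767 mature miRNAs at day 14, 90 and 180 and 1950 names in all. Small RNA was sequenced from whole lung of C57BL/6 mice, an inbred strain, aged 6 to 8 weeks when the mice were divided into groups. Irradiated mice received 15 Gy of X-rays to the whole thoracic cavity, with the rest of the body spared, and control mice were the unirradiated group of the same day. Each of the 6 groups, control and irradiated at days 14, 90 and 180, held 4 libraries. Separate animals are not stated for the 4 libraries of a group, so a p-value here measures the spread between libraries, which may be technical.

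Hox genes encode homeodomain transcription factors that give cells their position along the body axis, and they sit in clusters in the order of the body regions in which they act. miR-10 genes lie beside the Hox4 genes and miR-196 genes beside the Hox9 genes, and the miRNAs are made together with their Hox neighbours. miR-196 represses Hox messenger RNAs and is known for cutting that of Hoxb8, a rare case of near-complete pairing in animals. In the lung, as in other organs, connective tissue cells keep a Hox code of their position after development.

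The mature sequences are shown because the members of each family differ at 1 base, which is all that separates their counts. They are from RefSeq (GRCm38.p6), 5′ to 3′, with the seed, bases 2 to 8, in capitals. All 4 names were matched.
miR-196a-5p: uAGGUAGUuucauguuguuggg
miR-196b-5p: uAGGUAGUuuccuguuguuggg
miR-10a-5p: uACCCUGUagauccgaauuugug
miR-10b-5p: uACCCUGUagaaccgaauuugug

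Counted from the 5′ end, miR-196b-5p differs from miR-196a-5p by A12C, and miR-10b-5p differs from miR-10a-5p by U12A. Both changes lie outside the seed, so each family has 1 seed. Among 1679 mature mouse miRNAs of RefSeq, 2 hold AGGUAGU and 2 hold ACCCUGU as their seed, in each case the members of 1 family. The letters AGGUAGU also stand at bases 3 to 9 of 8 of the 9 mature miRNAs named as 5′ arms of the let-7 family or miR-98. Names without an arm, such as let-7k, were not counted. No other miRNA row had counts identical to those of a member in any table. How the counting treated reads that match both members of a family is not given in the labels, notes or headers used here, so values of a single member carry that uncertainty, above all those of the rarer member.

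miR-196a-5p comes from 2 hairpins on different chromosomes, and its count is their sum. The miR-196 hairpins are shown for this reason, with the mature 5′ arm in capitals. Mir196b lies at chr6:52230081-52230165 on the minus strand, in exons of 2 Hoxa9 transcripts and an intron of another. Mir196a-1 lies at chr11:96265164-96265265 on the plus strand, outside annotated transcripts and 6192 bases before Hoxb9. Mir196a-2 lies at chr15:102973350-102973434 on the plus strand, in an intron of a Hoxc5 transcript and between Hoxc10 and Hoxc9.
Mir196b: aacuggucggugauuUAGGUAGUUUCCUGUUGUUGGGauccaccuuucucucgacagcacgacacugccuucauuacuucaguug
Mir196a-1: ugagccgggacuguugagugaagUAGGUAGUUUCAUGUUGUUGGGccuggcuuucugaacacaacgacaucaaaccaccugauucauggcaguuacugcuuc
Mir196a-2: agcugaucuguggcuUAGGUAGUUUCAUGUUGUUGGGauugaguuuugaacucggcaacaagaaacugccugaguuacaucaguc

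Each miR-10 miRNA comes from 1 hairpin. Mir10a lies at chr11:96317165-96317274 on the plus strand, outside annotated transcripts and 993 bases before Hoxb4. Mir10b lies at chr2:74726070-74726137 on the plus strand, in introns of Hoxd4 and Hoxd3 transcripts. Mir10a and Mir196a-1 thus share the Hoxb cluster. Positions are from RefSeq and transcripts from GENCODE M21, both on GRCm38, the build named in the submitters' processing notes.

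The known site of miR-196 in the 3′ untranslated region of Hoxb8 is at chr11:96284888-96284909, plus strand. It was found as the best match in that region and is shown with the bases opposite the seed in capitals.
Hoxb8 site: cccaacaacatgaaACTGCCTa

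Its 22 bases form 21 Watson-Crick pairs and 1 G:U pair with miR-196a-5p. With miR-196b-5p they form 20 Watson-Crick pairs, 1 G:U pair and 1 mismatch. The pairing describes letters only, and no Hox messenger RNA was measured here.

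Levels are in CPM, counts scaled to a common library size within a day by TMM, a method that equalises libraries on the bulk of their miRNAs. Total counts were 2832205 to 3695133 per library. In the markers of lung cells, the summed endothelial miR-126a arms stood between 35790 and 57790 CPM and the summed epithelial miR-200 and miR-141 miRNAs between 30450 and 68710 CPM over all libraries. 2 libraries stood apart. Control library 2 of day 14 held 4016 CPM of the miRNAs of stratified epithelium (miR-205-5p and miR-203-3p), where the irradiated libraries of that day held 520.1 to 582 CPM. Irradiated library 1 of day 180 had the lowest total, and its median Spearman correlation with the rest of day 180 was 0.914, against 0.94 to 0.962 for the others. In whole lung, fewer cells of a type and less RNA per cell cannot be told apart.

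The family members differed widely in abundance. miR-10a-5p took 1.78% to 2.97% of the counts of a library and ranked 12th to 22nd among its miRNAs. miR-10b-5p took 0.0342% to 0.181% and ranked 79th to 145th. miR-196b-5p ranked 204th to 367th and miR-196a-5p 297th to 751st. These ranks compare counts of miRNAs of 22 or 23 bases and are not corrected for how readily each is ligated and amplified.

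**Figure D1:**
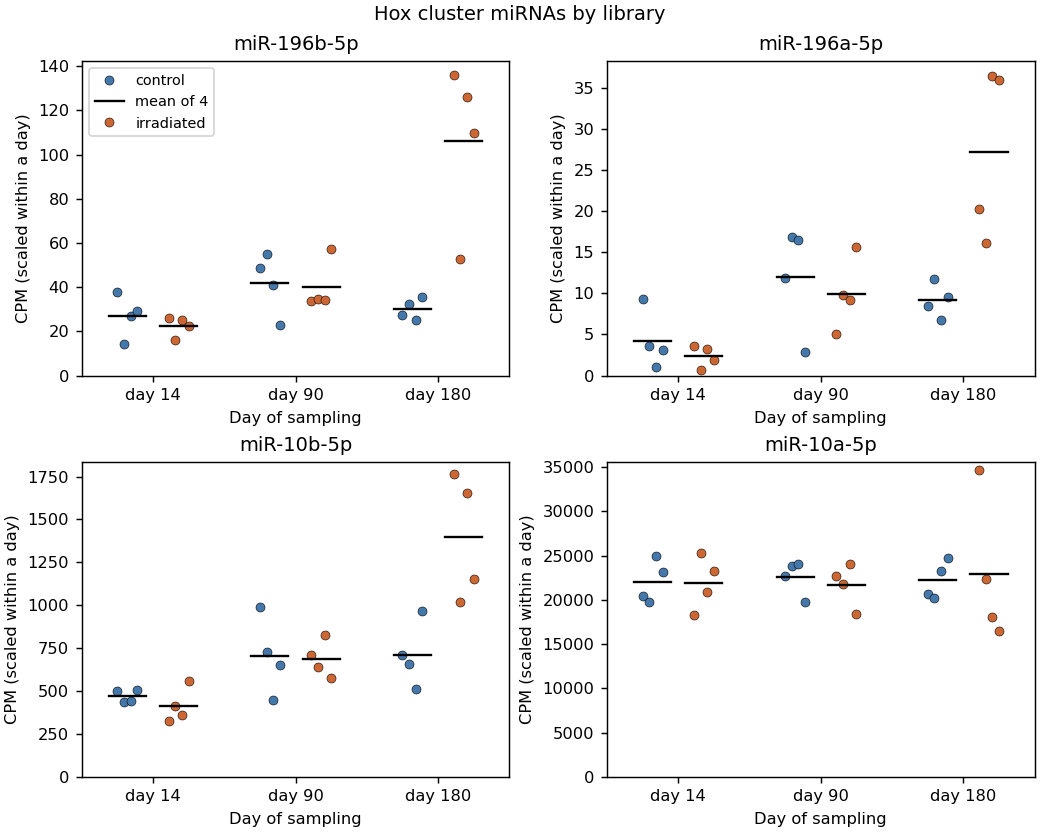
CPM of the 4 miRNAs in each of the 24 libraries (vertical axes from 0, a different range in each panel, scaled within a day) against the day of sampling, with blue points for control, orange points for irradiated libraries and black lines for the mean of 4. At day 180 the irradiated libraries of miR-196b-5p (52.9 to 136 CPM), miR-196a-5p and miR-10b-5p lie above all controls, whereas those of miR-10a-5p spread around theirs.

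At day 180, miR-196b-5p stood at 27.7, 32.3, 25.4 and 35.6 CPM in control libraries 1 to 4. In irradiated libraries 1 to 4 it stood at 136, 52.9, 126 and 109.7 CPM. All 4 irradiated libraries were above every control, with library 2 the closest to them. The means were 106 ± 37.2 and 30.2 ± 4.6 CPM (SD, n = 4 each), a log2 fold change of 1.81 ± 0.33 (SE), 3.51-fold. This difference chose the miRNA and is a description with no test, as are all values of irradiated against control lungs at day 180. By counts it rests on 187 to 498 reads against 87 to 121 reads.

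miR-196a-5p, from the Hoxb and Hoxc clusters, stood at 8.51, 11.8, 6.7 and 9.59 CPM in the controls of day 180 and at 20.2, 16.1, 36.4 and 35.9 CPM in irradiated libraries 1 to 4. Again no irradiated library overlapped the controls, and libraries 3 and 4 were higher than libraries 1 and 2. The means were 27.2 ± 10.5 against 9.14 ± 2.11 CPM, a log2 fold change of 1.57 ± 0.36 (SE), from 49 to 144 reads against 23 to 44.

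miR-10b-5p, from the Hoxd cluster, stood at 710.7, 655, 510.0 and 964 CPM in the controls and at 1762, 1017, 1655 and 1152 CPM in irradiated libraries 1 to 4. The lowest irradiated library was just above the highest control. The means were 1396 ± 367 against 709.9 ± 189 CPM, a log2 fold change of 0.98 ± 0.28 (SE).

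miR-10a-5p, from the Hoxb cluster and the most abundant of the 4, stood at 20690, 20260, 23300 and 24750 CPM in the controls. It stood at 34670, 22320, 18120 and 16500 CPM in irradiated libraries 1 to 4. The groups overlapped, with 1 irradiated library above and 2 below all controls. The log2 fold change was 0.04 ± 0.22 (SE), and it was -0.24 ± 0.13 without irradiated library 1. In CPM, that library carried the highest level of day 180 for miR-10a-5p, miR-10b-5p and miR-196b-5p. For miR-10b-5p and miR-196b-5p this order depends on the scaling. Irradiated library 3 held more reads of miR-10b-5p than irradiated library 1 (6540 against 4268). The RPM of miR-10b-5p, scaled by the authors, was also higher in library 3 (424.4 against 324.3). For miR-196b-5p, irradiated libraries 3 and 4 held 498 and 397 reads against 330 in library 1. Their RPM was 32.3 and 26.8 against 25.1.

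Of the 4 members, 3 stood above all controls in every irradiated library of day 180. Over all 552 miRNAs that passed the filter on low counts, 5.43% did so, 6.52% stood below all controls in every irradiated library and 12% did either. edgeR called 0% at an adjusted p under 0.05 and 18.3% at an unadjusted p under 0.05, and DESeq2 called 28 miRNAs. The contrast chose the members, so nothing is read from these shares. Without irradiated library 1, the log2 fold changes were 1.66 ± 0.30 for miR-196b-5p, 1.67 ± 0.34 for miR-196a-5p and 0.83 ± 0.26 for miR-10b-5p. The median of the 4 members was 1.27, and that of all 552 miRNAs was 0.13.

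Marker miRNAs of other cell types were read in the same libraries of day 180. For comparison, 12% of all 552 miRNAs that passed the filter had groups that did not overlap, above or below the controls. The summed miRNAs of stratified epithelium stood at 581.7 to 790.4 CPM in irradiated and 817.8 to 890.5 CPM in control libraries, with both miRNAs lower on average and 1 of 2 not overlapping. The kidney-enriched miR-192-5p and miR-194-5p summed to 1271 to 1635 against 1664 to 2444 CPM, with both lower on average and 1 of 2 not overlapping. Both sums were thus below all controls where miR-196b-5p was above them. The 4 neural miRNAs summed to 286.8 to 343.6 against 253.8 to 341.7 CPM, with 2 of 4 higher on average and none of the 4 at 0 reads in any library. Among them 1 of 4 did not overlap, miR-124-3p, at 14.9 to 49.2 against 4.95 to 12.1 CPM. miR-9-5p stood at 37.86 to 113.5 against 24.48 to 41.12 CPM. Lower ranges were held by miR-128-3p (167.2 to 236.6 against 209.5 to 283.8 CPM) and miR-219a-5p (2.763 to 9.615 against 8.774 to 14.86 CPM). The 4 miRNAs of smooth muscle and fibroblasts summed to 38760 to 43530 against 37810 to 45760 CPM, with 2 of 4 higher on average and 1 of 4 not overlapping. That 1 was miR-145a-5p, at 2374 to 4182 CPM in irradiated and 4346 to 8543 CPM in control libraries. The sum hides a wide spread of rarer miRNAs beside miR-143-3p (25770 to 38530 against 26450 to 31490 CPM). miR-199a-5p stood at 2548 to 11030 against 5234 to 5551 CPM, and miR-214-3p at 73.47 to 1230 against 366.1 to 850 CPM. Sums of the other 7 lists overlapped between the groups. The part of any of these cell types in the values of miR-196 and miR-10 was not tested.

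**Figure D2:**
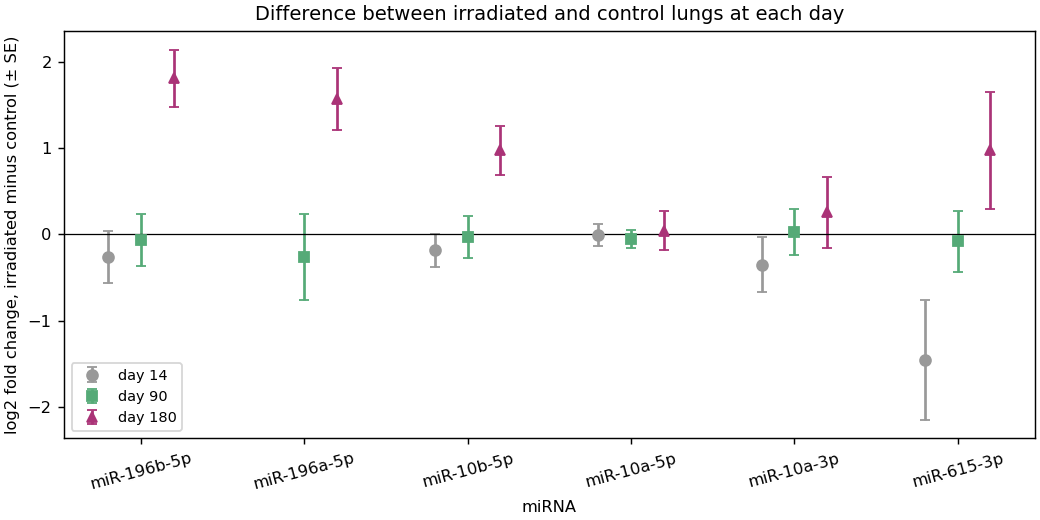
Log2 fold change of irradiated minus control lungs (vertical axis, bars are ± 1 SE, n = 4 against 4 libraries) for the members and 2 further Hox cluster miRNAs (horizontal axis) at day 14 (grey circles), day 90 (green squares) and day 180 (purple triangles). miR-196b-5p lies at -0.26, -0.07 and 1.81 at the 3 days, and miR-196a-5p has no point at day 14, where it did not pass the filter.

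The comparison of day 14 asks whether these miRNAs differed soon after irradiation. miR-196b-5p was picked for a difference that came late, so its small differences at day 14 and day 90 belong to that choice and support nothing on their own. miR-196b-5p stood at 37.7, 14.2, 26.9 and 29.2 CPM in control libraries 1 to 4. It stood at 26.0, 16.0, 25.3 and 22.7 CPM in irradiated libraries 1 to 4, all inside the range of the controls. The log2 fold change of -0.26 ± 0.30 (SE) had an edgeR adjusted p of 0.919. Leaving out 1 library moved it between -0.05 (without control library 1) and -0.46 (without control library 2). Replicate numbers paired the libraries of day 14, and with that number as a block the log2 fold change was -0.21 ± 0.18 (SE; edgeR adjusted p = 0.866). Library 2 was the lowest of both groups.

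miR-10b-5p stood at 499.5, 438, 440.1 and 505 CPM in the controls of day 14 and at 327, 410.1, 359.7 and 560.2 CPM in irradiated libraries. In this case 3 irradiated libraries lay below all controls and library 4 above them. The log2 fold change was -0.18 ± 0.19 (SE; edgeR adjusted p = 0.919), and it was -0.07 without irradiated library 1 and -0.34 without irradiated library 4. miR-10a-5p stood at 19770 to 24980 CPM in controls and 18250 to 25310 CPM in irradiated libraries, with a log2 fold change of -0.01 ± 0.12 (SE; edgeR adjusted p = 0.991). With the replicate number as a block, the log2 fold change was -0.21 ± 0.18 for miR-10b-5p (SE; edgeR adjusted p = 0.866). For miR-10a-5p it was then -0.01 ± 0.11 (SE; edgeR adjusted p = 0.968). miR-196a-5p was covered by 3 to 30 reads in controls and 2 to 11 in irradiated libraries and did not pass the filter. Fitted with no filter, its log2 fold change was -0.85 ± 0.57 (SE; edgeR adjusted p = 0.742). Its level was 1.02 to 9.27 CPM in controls and 0.654 to 3.62 CPM in irradiated libraries.

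edgeR called 0 of the 3 members that passed the filter at day 14, and 0% of 499 miRNAs. At an unadjusted p under 0.05 it found 0 of the 3 and 5.41% of all. DESeq2 and limma-voom called 0 of the 3 as well, and over all 499 miRNAs they called 1 and 0. None of the 3 had groups that did not overlap, against 2.4% of all (0.802% above and 1.6% below all controls).

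At day 90, miR-196b-5p stood at 48.6, 54.9, 41.1 and 22.9 CPM in controls and at 33.6, 34.6, 34.2 and 57.4 CPM in irradiated libraries 1 to 4. The groups overlapped, and control library 4 was the lowest of the day while irradiated library 4 was the highest. The log2 fold change was -0.07 ± 0.30 (SE; edgeR adjusted p = 0.971).

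miR-196a-5p stood at 11.9, 16.8, 16.5 and 2.82 CPM in controls and 5.12, 9.81, 9.22 and 15.6 CPM in irradiated libraries. Control library 4 was again the lowest. Its log2 fold change was -0.26 ± 0.50 (SE; edgeR adjusted p = 0.919). It moved to -0.62 ± 0.35 without control library 4 and to -0.60 without irradiated library 4, and lay between -0.06 and -0.08 without control library 2, control library 3 or irradiated library 1. miR-10b-5p stood at 991.7, 726, 449.5 and 651 CPM in controls and at 712, 639, 826 and 577 CPM in irradiated libraries, all inside the range of the controls (log2 fold change -0.03 ± 0.24, SE; edgeR adjusted p = 0.976). miR-10a-5p stood at 19750 to 24010 CPM and 18350 to 24050 CPM (log2 fold change -0.06 ± 0.10, SE; edgeR adjusted p = 0.919).

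edgeR called 0 of the 4 members at day 90, and 0.358% of 558 miRNAs (2, both higher). At an unadjusted p under 0.05 it found 0 of 4 members and 12.7% of all. DESeq2 and limma-voom also called 0 of the 4, and over all 558 miRNAs they called 19 and 3. None of the 4 had groups that did not overlap, against 7.17% of all (4.84% above and 2.33% below all controls). A p above the threshold does not show that the groups were alike, and the SE of 0.10 to 0.50 gives the precision of each value.

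Whether the effect of radiation differed between day 14 and day 90 was tested in 1 fit over all 24 libraries (624 miRNAs). The difference, day 90 minus day 14, was 0.22 ± 0.45 (SE) for miR-196b-5p, 0.62 ± 0.78 for miR-196a-5p, 0.14 ± 0.36 for miR-10b-5p and -0.04 ± 0.26 for miR-10a-5p on the log2 scale. edgeR gave an adjusted p of 0.996 for each and called 0% of all miRNAs, with 4.49% at an unadjusted p under 0.05 and 0 of the 4 members among them. miR-196b-5p was picked for a late difference, so its small value in this contrast belongs to that choice and supports nothing. Day 180 minus day 90 was 1.85 ± 0.45 for miR-196b-5p, 1.79 ± 0.73 for miR-196a-5p, 1.00 ± 0.36 for miR-10b-5p and 0.08 ± 0.26 for miR-10a-5p. These last values use day 180 and are a description with no test.

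The levels of all 6 groups were set side by side on 1 scaling of the 24 libraries. The day of sampling and the table made for it cannot be told apart in this order. miR-196b-5p was lowest in irradiated lungs of day 14 (24.9 ± 4.35 CPM, SD, n = 4). It then stood at 28.9 ± 4.28 in controls of day 180, 30.2 ± 10.9 in controls of day 14, 37.7 ± 10.8 in irradiated lungs of day 90, 39.3 ± 12.6 in controls of day 90 and 100.2 ± 35.5 in irradiated lungs of day 180. Each group overlapped its lower neighbour, and irradiated library 2 of day 180, at 50.7 CPM, lay below the highest control of day 90, at 51.3 CPM.

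For miR-10b-5p the order ran from irradiated lungs of day 14 (464 ± 130 CPM, SD, n = 4) over controls of day 14 (525 ± 45.2) to irradiated (651 ± 101) and control lungs of day 90 (667 ± 217) and controls of day 180 (678 ± 180.0). Irradiated lungs of day 180 (1322 ± 363) were the only group whose libraries all lay above those of its lower neighbours. For miR-196a-5p the order ran from 2.57 ± 1.42 in irradiated lungs of day 14 and 4.68 ± 3.87 in their controls over 8.73 ± 1.99 in controls of day 180 to 25.5 ± 9.43 CPM in irradiated lungs of day 180, with every group overlapping its lower neighbour. Between these, irradiated and control lungs of day 90 stood at 9.4 ± 4.07 and 11.2 ± 5.92 CPM. miR-10a-5p stood between 20510 ± 2323 (irradiated, day 90) and 24670 ± 3214 CPM (control, day 14), and none of its neighbours in order was separate.

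A ratio of 2 miRNAs in the same library does not depend on the scaling between libraries. The log2 ratio of miR-10b-5p to miR-10a-5p, with 0.5 added to each count, was -5.55 ± 0.20 (SD, n = 4) in controls and -5.75 ± 0.26 in irradiated lungs at day 14. The difference of -0.20 had an exact two-sided permutation p of 0.314. Within the replicate numbers, which paired the libraries of day 14, the exact sign-flip permutation p was 0.375, where 0.125 is the smallest that 4 pairs allow. At day 90 it was -5.05 ± 0.51 and -4.98 ± 0.09, a difference of 0.07 with an exact permutation p of 0.8. Over the 4 ratio tests of days 14 and 90 the adjusted p was 0.886 for each, and the smallest p that 4 against 4 libraries allow is 0.0286.

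At day 180 the log2 ratio of miR-10b-5p to miR-10a-5p was -5.002 ± 0.36 in controls and -4.01 ± 0.45 in irradiated lungs. The irradiated libraries (-4.46 to -3.45) lay above the controls (-5.51 to -4.68). On the linear scale miR-10b-5p thus held 0.0312 reads for each read of miR-10a-5p in controls and 0.062 in irradiated lungs. This is a description, from the contrast that chose the members.

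The log2 ratio of miR-196b-5p to miR-196a-5p was 2.91 ± 1.20 and 3.38 ± 0.70 in control and irradiated lungs at day 14 (difference 0.46, exact permutation p = 0.571, and 0.625 within pairs). Without 1 library that difference ran from 0.14 (without control library 2) to 0.99 (without control library 3). It was 2.00 ± 0.71 and 2.06 ± 0.42 at day 90 (difference 0.06, exact permutation p = 0.886) and 1.73 ± 0.21 and 1.96 ± 0.53 at day 180. In contrast to the miR-10 pair, the groups of the miR-196 pair overlapped at day 180, where irradiated library 1 had the highest ratio (2.74). Without that library the difference of day 180 was -0.03 for the miR-196 pair and 1.09 for the miR-10 pair.

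**Figure D3:**
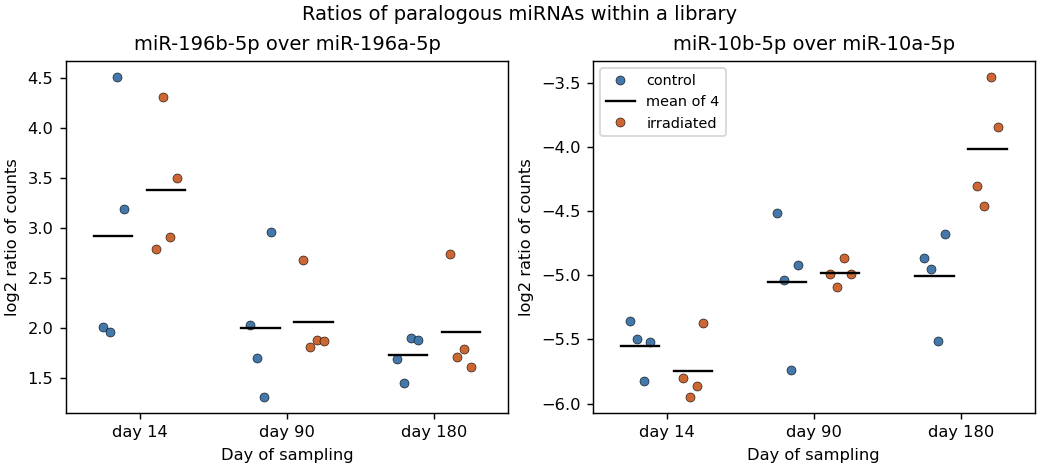
Log2 ratio of counts (vertical axis, 0.5 added to each count) of the members of each family within each library, against the day of sampling, with blue points for control, orange points for irradiated libraries and black lines for the mean of 4. At day 180 the ratio of miR-10b-5p to miR-10a-5p lies at -5.51 to -4.68 for controls and at -4.46 to -3.45 after irradiation, and that of miR-196b-5p to miR-196a-5p overlaps.

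Other mature miRNAs of the Hox clusters were read from a list of 7, the 3′ arms of the same hairpins and both arms of miR-615, whose gene lies in the Hoxc cluster. The tables of day 14 and day 90 held 4 of them and that of day 180 held 5, and only miR-10a-3p and miR-615-3p passed the filter. edgeR called neither at day 14 or day 90. miR-196b-3p, the 3′ arm of the miR-196b hairpin, had 0 reads in the controls of day 180 and 0 to 1 read in irradiated libraries, so this arm gives no check on the 5′ arm at this depth. miR-10b-3p had 0 to 4 reads and miR-615-5p 0 to 2 reads in any library. The deposited tables held no row named miR-196a-1-3p or miR-196a-2-3p, so these have no values here.

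miR-10a-3p, the 3′ arm of the miR-10a hairpin, stood at 13.9 ± 4.72 and 10.9 ± 3.48 CPM (SD, n = 4 each) in control and irradiated lungs at day 14 and at 11.4 ± 3.31 and 11.6 ± 2.44 CPM at day 90. At day 180 it stood at 10.8 to 12.8 CPM in controls and at 27.7, 7.92, 9.36 and 11.1 CPM in irradiated libraries 1 to 4. Library 1, highest in the 5′ arm, was also highest in the 3′ arm, and the log2 fold change of 0.25 ± 0.42 (SE) was -0.31 ± 0.25 without it.

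miR-615-3p stood at 6.49, 32.3, 7.16 and 4.3 CPM in the controls of day 14 and at 1.97, 6.54, 3.24 and 6.52 CPM in irradiated libraries. Its log2 fold change of -1.46 ± 0.69 (SE; edgeR adjusted p = 0.893) was -0.37 ± 0.44 (edgeR adjusted p = 0.891) without control library 2, the library with high miRNAs of stratified epithelium. At day 180 it stood at 61.5, 10.2, 17.2 and 5.25 CPM in irradiated and 7.43 to 15.5 CPM in control libraries, a log2 fold change of 0.98 ± 0.68 (SE) that was -0.13 ± 0.44 without irradiated library 1. Its groups overlapped at all 3 days.

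To see which miRNAs varied with the members, log2 CPM was centred on the mean of each day and compared over the 24 libraries, among miRNAs that passed the filter at all 3 days (479 besides the one compared). These correlations are a description. They include the difference at day 180 that chose the members, and the libraries share their scaling. For miR-196b-5p the highest Pearson r were those of miR-409-3p (0.776, Spearman rho 0.771), a miRNA of the imprinted Dlk1-Dio3 cluster, miR-26a-2-3p (0.772, rho 0.816), miR-7a-5p (0.746, rho 0.712), a predicted miRNA without an annotated name (0.735, rho 0.601) and miR-9-3p (0.696, rho 0.59). miR-10b-5p followed as number 6 of 479 (r = 0.684, rho = 0.604). miR-10a-5p was number 224 (r = 0.0152, rho = -0.0826).

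The order among them moved when control library 2 of day 14 and irradiated library 1 of day 180 were left out, a choice made after seeing the data. With 22 libraries, miR-26a-2-3p was number 5 (r = 0.741) and miR-409-3p number 14 (r = 0.687) for miR-196b-5p. miR-10b-5p was then number 24 (r = 0.628), and miR-10a-5p went to number 439 (r = -0.509, rho = -0.404).

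Of these miRNAs, miR-409-3p at day 180 had a mean of 33.0 ± 13.0 CPM (SD, n = 4) after irradiation and 14.4 ± 1.92 CPM without, and at day 90 the means were 22.5 ± 6.64 and 22.2 ± 5.93 CPM. miR-7a-5p, a miRNA of neural and endocrine cells, stood at 1763 ± 1007 against 826 ± 34.4 CPM at day 180. miR-26a-2-3p stood at 109.5 ± 38.0 against 61.7 ± 3.54 CPM.

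For miR-10b-5p the most alike were miR-26a-2-3p (r = 0.72, rho = 0.672), miR-139-3p (0.698 and 0.6), miR-28a-3p (0.694 and 0.544), miR-342-5p (0.689 and 0.634) and miR-196b-5p. For miR-10a-5p they were abundant miRNAs: let-7b-5p (r = 0.953, rho = 0.923), miR-99a-5p (0.929 and 0.872), let-7c-5p (0.92 and 0.884), miR-26a-5p (0.891 and 0.882) and the endothelial miR-126a-3p (0.88 and 0.862). Number 132 of 479 was miR-10b-5p, its relative (r = 0.233, rho = 0.142). Without the same 2 libraries, miR-99a-5p (r = 0.928) and let-7b-5p (0.919) were the first for miR-10a-5p, and miR-10b-5p was number 274 (r = -0.114). For miR-10b-5p, miR-26a-2-3p was then number 4 (r = 0.658). miR-196a-5p did not pass the filter at day 14 and was left out of this comparison.

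**Figure D4:**
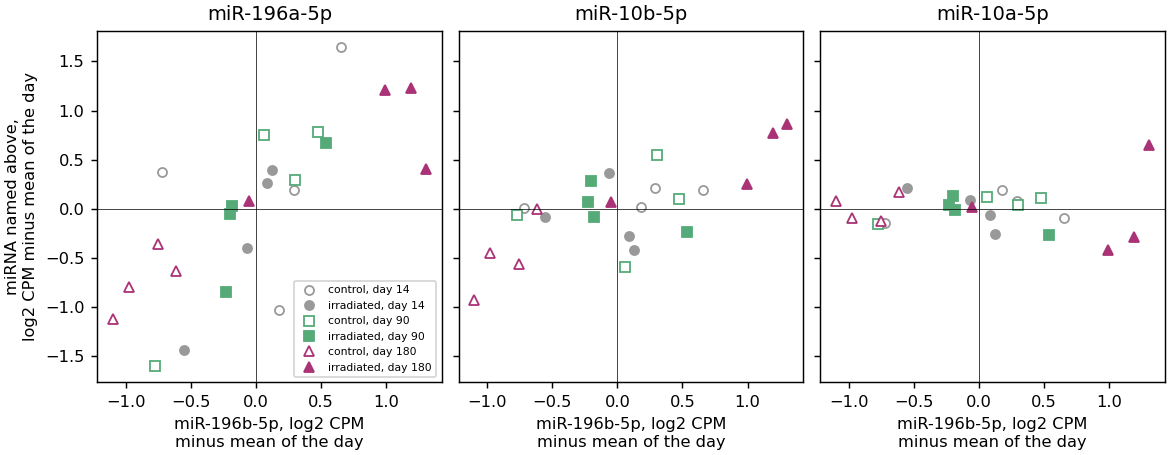
Log2 CPM (0.5 added) minus the mean of the day for miR-196a-5p, miR-10b-5p and miR-10a-5p (vertical axes) against that of miR-196b-5p (horizontal axis) in 24 libraries, open for control and filled for irradiated, with circles for day 14, squares for day 90 and triangles for day 180. In the panels of miR-196a-5p and miR-10b-5p 3 of the 4 irradiated libraries of day 180 lie at the upper right with the fourth near the centre, and the controls of that day lie to the left. In that of miR-10a-5p (r = 0.0152), among the irradiated libraries of day 180 only library 1 lies at the upper right.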

How the data were processed

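The authors deposited 1 table for each day, in which every library has a column of counts and a column of RPM. The column headers name the counts as read counts without stating that they are unnormalised, and they were used as deposited. RPM is the count scaled by the authors to a total of 11984014 to 16081435 reads per library, 3.72 to 4.65 times the sum of the table. The submitters' processing notes name Bowtie2 and GRCm38.p6 without saying what each was used for. The counter and any use of molecular identifiers are not given in the labels or headers used here. The members and lists were chosen with earlier results of these data known.

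Each day was fitted alone on all its miRNAs with edgeR 4.0.16 (R 4.3.3): filterByExpr, TMM, the quasi-likelihood F-test and Benjamini-Hochberg adjustment over all miRNAs tested, threshold 0.05, n = 4 against 4. The SE was derived from the log2 fold change and F. The fits were tested on simulated counts drawn independently for each library. These held no pairs and no outlying library, so they do not test the fits on such features of the data. Alternatives were RLE size factors, the RPM totals, other filters, DESeq2 1.42.0, limma-voom (limma 3.58.1), 1 fit of all libraries, the replicate number as a block and leaving out each library. Replicate numbers paired the libraries at day 14 (correlation of deviations 0.172 to 0.465 in the 4 pairs) and not at day 90 (-0.224 to 0.355) or day 180 (-0.356 to -0.0934). The closest libraries of a group differed by a chi-square of 50.2 per degree of freedom, so none was counted as a copy. Named besides the 4 members were the 7 other miRNAs of the Hox list, the 5 miRNAs most alike to each member (Pearson, log2 CPM with a prior count of 2) and the fixed marker lists. Counts are not taken as independent molecules.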

Additional observations from a re-analysis of the deposited data

Results flagged for a closer look

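In 48 groups of 4 libraries (6 miRNAs and 2 ratios in 6 groups each), 5 had 1 library far from the other 3, with a gap to the nearest that was over Dixon's critical share of the group's range. Chance flags about 1 in 20 such groups. miR-196b-5p stood at 57.36 CPM in irradiated library 4 of day 90, where the others stood at 33.56 to 34.63 CPM. The log2 ratio of miR-196b-5p to miR-196a-5p was 2.679 in irradiated library 1 of day 90 (next 1.874) and 2.739 in irradiated library 1 of day 180 (next 1.787). miR-10a-3p stood at 27.65 CPM in irradiated library 1 of day 180 (next 11.05), the library with the lowest total count. miR-615-3p stood at 32.3 CPM in control library 2 of day 14 (next 7.165), the library with 4016 CPM of stratified epithelium miRNAs. The part of these library features in the values was not tested.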

How the results depend on the processing

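The log2 fold changes at day 180 kept their direction for miR-196b-5p (1.66 to 2.02), miR-196a-5p (1.39 to 1.74) and miR-10b-5p (0.83 to 1.15) over 16 alternatives each, and miR-10a-5p ranged from -0.24 to 0.19. No alternative at day 14 or day 90 called a member, with adjusted p of 0.5 to 0.999, and values near 0 changed sign. For miR-10a-5p at day 14 the value was 0.0199 when a mean of 10 CPM was required and -0.0779 to 0.0911 without 1 library. For miR-196b-5p at day 90 it was 0.0084 with the RPM totals and -0.316 to 0.0846 without 1 library. For miR-10b-5p at day 90 it was 0.00087 with the RPM totals, 0.0082 with limma-voom, 0.0050 with the replicate block and -0.21 to 0.16 without 1 library. At day 90 the log2 ratio difference without 1 library ran from -0.17 to 0.38 for the miR-196 pair and from -0.16 to 0.25 for the miR-10 pair. miR-196a-5p at day 14 was fitted under 10 alternatives and ran from -1.15 ± 0.58 (SE, without control library 3) to -0.12 ± 0.60 (without control library 1), with edgeR adjusted p of 0.742 to 0.994.

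Over all miRNAs, edgeR called 0 at day 14, and the count was 7 without a filter, 1 by DESeq2, 1 in a single fit of the 24 libraries and 0 to 1 without 1 library (1 without irradiated library 4). At day 90 it called 2, and the count was 18 with no filter, 19 with DESeq2, 3 with limma-voom, 0 when a mean of 10 CPM was required, 0 in the single fit, 0 with the replicate block, and 0 to 7 without 1 library (7 without control library 4, 3 without irradiated library 4, 1 without control library 2 or 3 and 0 without each other one). At day 180 it called 0, and the count was 18 with no filter, 28 with DESeq2, 32 in the single fit and 0 to 5 without 1 library (5 without irradiated library 2, 3 without irradiated library 4). The cause was not tested. The replicate block changed no other call. The difference between day 90 and day 14 called 0 under all 28 alternatives. Low counts limit the precision of miR-196a-5p at day 14 and of the 3′ arms.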
